A study of Mus musculus with 6 samples.

Results

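T cell receptor alpha and beta variable genes were followed through the T and NK cells of a mouse pancreatic tumor model. Every gene feature whose symbol starts with Trav or Trbv was taken, which gave 130 Trav genes and 35 Trbv genes, 165 of the 34187 gene features in the deposited matrices. Pseudogenes and near-identical copies that carry such a symbol were included. So were Trav genes that also carry a delta V name (dv), whose UMIs need not come from alpha chains. No measured value was used to choose them.

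The cells were CD45+ leukocytes isolated with magnetic beads from subcutaneous 6694c2vTRP1 pancreatic tumors of C57BL/6 mice and read with a 5′ droplet assay. Tumors were taken on day 14 after 2 intraperitoneal injections given from day 8. Control mice received PBS, a second group received mono-IL10 at 26 µg per mouse, a monomeric form of the cytokine IL-10, and the remaining group received IL10/2-Trikine at 30.6 µg per mouse, the same cytokine linked to a binder of the IL-2 receptor beta chain. Each mouse carried its own hashtag, 5 per group, and the cells of each group were pooled into 1 library, so that treatment cannot be told apart from library. The PBS mice served as control for each treated group. The labels state 5 mice for each treated group, and the PBS number was taken from the hashtags. Mice of both sexes are stated for this tumor model. The methods give an age for the experiments with the parental tumor line, but none separately for these animals. Clusters are named as the authors named them, and T cells below means all cells of the 10 T clusters and NK cells those of the 2 NK clusters.

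A T cell builds each chain of its receptor by joining a variable (V) segment to joining segments, and to a diversity segment in the beta chain, before splicing to a constant region (Trac for alpha, Trbc1 or Trbc2 for beta). The V segment lies at the 5′ end of the transcript and encodes the first loops of the binding site and the start of the last one. Because each T cell normally expresses 1 productive beta chain and 1 or 2 alpha chains, the V gene read in a cell marks its clone only coarsely. NK cells do not rearrange these loci, although they can transcribe parts of them, constant segments among these. The authors left the receptor variable genes out of the features used to cluster T cells, so V usage did not shape the T clusters directly.

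The sequences decide which of these genes can be told apart. Coding sequences were found for 22 Trbv and 108 Trav genes among GENCODE M21 transcripts (GRCm38), while the files were aligned to GRCm39. The 4 Trbv genes that led most T cells differ clearly near the end of the segment, shown here as the last 60 coding bases, with the codon of the conserved cysteine that opens the last of the loops in capitals.
Trbv19: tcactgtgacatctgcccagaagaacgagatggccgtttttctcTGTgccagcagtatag
Trbv29: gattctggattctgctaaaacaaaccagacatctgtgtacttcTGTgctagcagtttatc
Trbv13-1: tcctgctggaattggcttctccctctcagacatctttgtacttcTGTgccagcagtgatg
Trbv13-2: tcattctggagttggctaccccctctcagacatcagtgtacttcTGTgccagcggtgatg

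Many Trav genes exist in several copies, named with an added d or n. Trav11 and Trav11d, the V genes of the invariant NKT cell receptor, were identical over the 342 coding bases that both have, and their first 60 bases show no position to tell them apart. Trav9-2, one of the Trav genes seen most often, differed from its copy Trav9d-2 at 5 of 340 positions, and the stretch from base 187 to base 246 holds 2 of them, in capitals.
Trav11: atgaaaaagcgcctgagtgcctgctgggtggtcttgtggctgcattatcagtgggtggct
Trav11d: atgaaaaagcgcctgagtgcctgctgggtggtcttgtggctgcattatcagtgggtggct
Trav9-2: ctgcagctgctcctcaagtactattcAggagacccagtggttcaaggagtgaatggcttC
Trav9d-2: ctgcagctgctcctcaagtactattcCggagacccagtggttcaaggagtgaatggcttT

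Of the 50-base windows of each Trbv gene, 99.7% to 100% occurred in no other V gene, whereas the median Trav gene had 31.0% such windows. For 35 Trav genes no window was unique, and 0 of these 35 had a UMI in a T cell. A count of 0 for such a gene therefore does not show that it was unused. Trav usage is given below by subgroup, the number after Trav, which joins the copies.

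**Figure D1:**
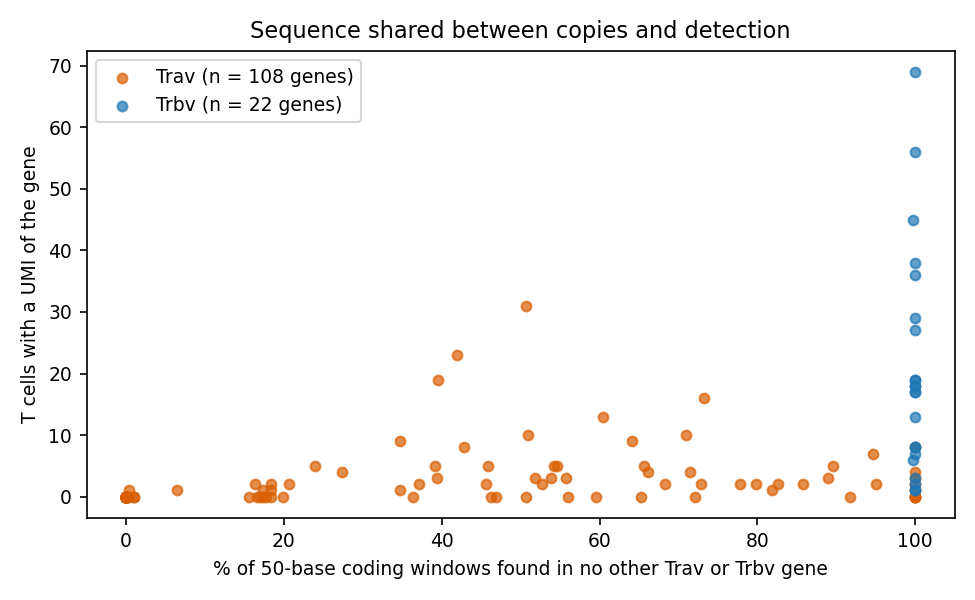
The plot sets, for each V gene with a coding sequence, the percent of its 50-base windows found in no other Trav or Trbv gene (horizontal axis) against the number of T cells with at least 1 UMI of it (vertical axis). The 22 Trbv genes sit at the right edge, and all genes with no unique window lie at 0 T cells.

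The annotated cells numbered 1221 T cells and 863 NK cells, of which 876 and 507 were assigned to 1 of the 15 mice. Median depth per T cell was 2599 to 2839 UMIs among PBS mice, 3361.5 to 4203.5 among mono-IL10 mice and 2472 to 3074 among IL10/2-Trikine mice. The libraries shared 408 to 700 barcodes in pairs, but 0 annotated ones. Markers bore out the T label unevenly. At least 1 UMI of Cd3d, Cd3e or Cd3g, the CD3 chains that every T cell receptor needs, was found in 87.5% to 100% of the cells of the CD4, CD8, Treg and Th17/ILCs clusters, in 80.6% of gdT/NKT cells, in 62.2% of Cycling_T cells and in 36.0% of the 25 naive_T cells, against 9.06% of cells in the NK cluster.

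A V gene was read in a minority of the T cells, and Trbv genes were read more often than Trav genes. In T cells 24 of the 35 Trbv and 54 of the 130 Trav genes had at least 1 UMI. They collected 1058 Trbv UMIs in 411 T cells (33.7%) and 403 Trav UMIs in 240 T cells (19.7%). A UMI of either family was seen in 526 T cells (43.1%) and of both in 125. Of the cells with a Trbv UMI 46 (11.2%) held 2 or more Trbv genes, and of the cells with a Trav UMI 40 held 2 or more Trav genes. The libraries were unequal in this. For Trbv it was 6 of 102 cells in PBS (5.88%), 40 of 272 in mono-IL10 (14.7%) and 0 of 37 in IL10/2-Trikine. Cells with a Trbv UMI held a mean of 1.79, 3.04 and 1.32 Trbv UMIs in these libraries, and the cause was not tested.

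The T clusters ranged widely in how often a V gene was read. Pooled over the libraries, the share of cells with a Trav or Trbv UMI was highest in activated CD4 T cells (act_CD4T, 60.5%, exact 95% interval 52.7 to 67.8, n = 172 cells) and in naive_CD8T (55.5%, 48.3 to 62.5, n = 200). Treg cells stood at 48.8% and naive_CD4T cells at 39.7%, with exact intervals that overlap each other. The 349 Cycling_T cells reached 36.1% at a median depth of 4095 UMIs, against a median of 3505 UMIs in act_CD4T. The lowest shares among the T clusters were 29.1% in gdT/NKT (n = 206), 28% in naive_T and 19.0% in Th17/ILCs (n = 21), clusters in which Trdc, the delta constant gene, was seen in 16.02%, 8.00% and 33.3% of cells. NK cells had 1.89% (n = 795) and Cycling_NK cells 1.47% (n = 68). These intervals cover counting error only, and cells of a library are not replicates. The pooled order also depends on the mix of libraries, since 174 of the 349 Cycling_T cells came from IL10/2-Trikine. Within mono-IL10 alone 73.3% of Cycling_T cells had a V UMI, close to the 75% of act_CD4T and above the 59.4% of naive_CD8T, whereas within IL10/2-Trikine 10.3% of Cycling_T and 32.1% of act_CD4T cells did.

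**Figure D2:**
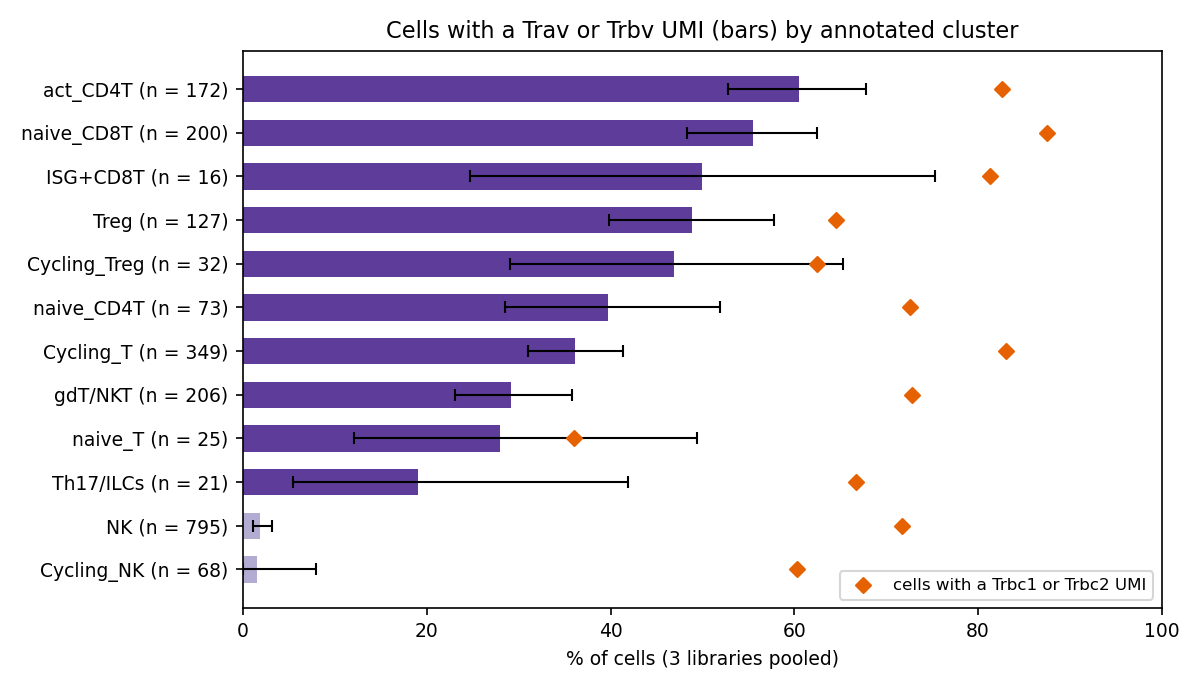
Bars give the percent of cells of each annotated cluster with at least 1 Trav or Trbv UMI, with exact 95% intervals for counting error, and diamonds give the percent with a Trbc1 or Trbc2 UMI. The NK clusters have diamonds at 71.7% and 60.3% but bars under 2%, while the bars of the T clusters run from 19.0% in Th17/ILCs to 60.5% in act_CD4T.

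How often a V gene was read differed by treatment. In T cells of the PBS mice, taken in the order of their hashtags, 22, 32.5, 45.1, 27.2 and 22.2% of cells had a Trbv UMI, a mean of 29.8% ± 9.57 (SD, n = 5 mice). The mono-IL10 mice had 49.2, 48.1, 53.8, 45.6 and 47.5%, a mean of 48.8% ± 3.08. The IL10/2-Trikine mice had 5.00, 21.5, 10.5, 0 and 32.5%, a mean of 13.9% ± 13.1. All mono-IL10 mice lay above all mice of the other groups, while IL10/2-Trikine and PBS overlapped in 1 mouse. The mouse at 0 had 17 T cells, so that a share as high as 17.6% is allowed.

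The share with a Trbv UMI was 19.0 percentage points higher in mono-IL10 than in PBS (exact two-sided permutation test, adjusted p = 0.0136) and lower in IL10/2-Trikine than in mono-IL10 (difference -34.9 points, adjusted p = 0.0136 by the same exact test). The difference of -15.9 points between IL10/2-Trikine and PBS did not pass (exact permutation p = 0.0635, adjusted p = 0.0847), although without IL10/2-Trikine mouse 5 it was -20.5 and passed at an exact permutation adjusted p of 0.0119. With 5 mice against 5 the smallest p of this exact test is 0.00794, and p-values of the 4 shares and 3 comparisons were adjusted together over 12 tests.

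Trav genes were read less often, with the same order of groups. Of the T cells in PBS mice 14.0, 17.5, 27.5, 16.05 and 29.6% had a Trav UMI (20.9% ± 7.10, SD, n = 5). In mono-IL10 mice the values were 34.7, 22.1, 50, 20 and 37.3% (32.8% ± 12.2). In IL10/2-Trikine mice they were 2.50, 7.69, 5.26, 0 and 7.50% (4.59% ± 3.32), below every mouse of both other groups. The Trav share differed from that of PBS by -16.3 points and from that of mono-IL10 by -28.2 points (exact permutation tests, adjusted p = 0.0136 for both). For mono-IL10 against PBS, whose values overlapped, the difference was 11.9 points (exact permutation test, adjusted p = 0.121).

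**Figure D3:**
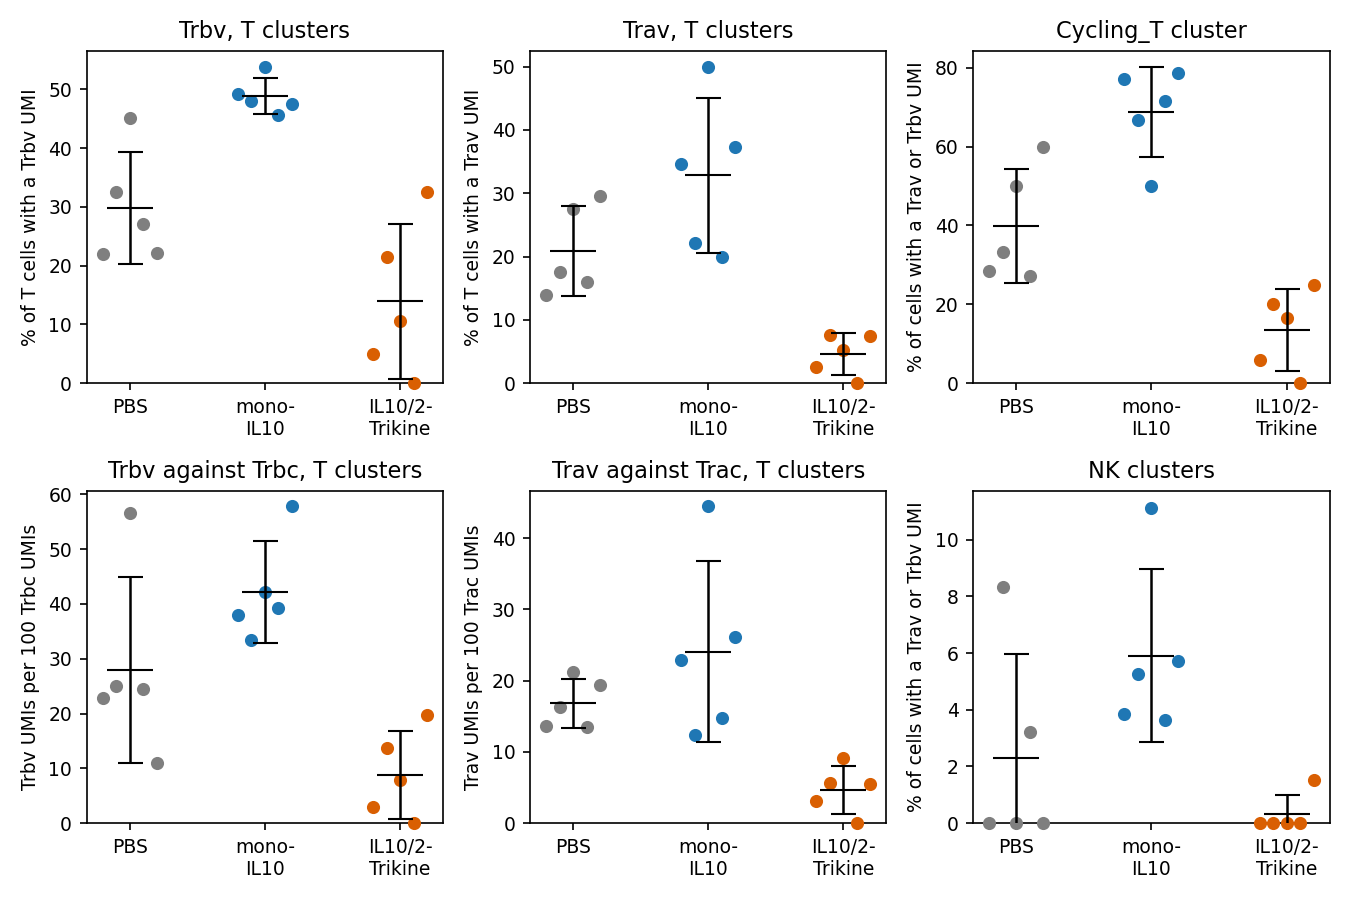
Each point is 1 mouse, with the group mean and SD in black (SD bars are cut at 0), for the percent of cells with a Trbv UMI and with a Trav UMI in T clusters, the percent with either in Cycling_T and in NK clusters, and the V UMIs for every 100 constant gene UMIs of the same chain in T clusters. The IL10/2-Trikine mice sit below all PBS and mono-IL10 mice in Trav and in Cycling_T, and in Trbv 1 of them, at 32.5%, reaches into the PBS range of 22 to 45.1%.

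Several measured features of the libraries moved with these shares. Depth was highest in mono-IL10. When every T cell was thinned to 1500 UMIs (1 T cell was shallower), the mean expected share with a Trbv UMI was 18.6% ± 7.001 for PBS, 29.2% ± 3.48 for mono-IL10 and 8.06% ± 7.39 for IL10/2-Trikine (n = 5 each). The 2 differences that had passed in Trbv still did (exact permutation tests, adjusted p = 0.0408 for mono-IL10 against PBS and 0.0190 for IL10/2-Trikine against mono-IL10). The thinned share with a Trav UMI was 11.97%, 16.3% and 2.76%, and IL10/2-Trikine again lay below every other mouse (exact permutation tests, adjusted p = 0.0190 against each group).

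Transcripts of an NK marker list also moved with them. All 5 NK markers (Ncr1, Klrb1c, Klre1, Tyrobp and Fcer1g) were found in the T clusters of each group, and their summed level per mouse was 859 to 1613 CPM (UMIs scaled to the total T cell UMIs of the mouse) in PBS, 634 to 1312 in mono-IL10 and 1803 to 2813 in IL10/2-Trikine. Fcer1g and Tyrobp gave most of this sum, such as 117 and 78 UMIs in PBS mouse 1. Klre1, Klrb1c and Ncr1 had 13, 8 and 3 there. A UMI of the list was also found in 73.9%, 70.9% and 56.2% of barcodes without a T or NK annotation (PBS, mono-IL10, IL10/2-Trikine). The list is therefore not specific to NK cells, and neither are the splits on it below. The summed CD3 level ran the other way, 1532 to 1940 in PBS, 2219 to 2667 in mono-IL10 and 705 to 1191 in IL10/2-Trikine. Cycling_T cells made up 53.7% ± 7.98 of the T cells per mouse in IL10/2-Trikine, against 18.4% ± 6.79 in PBS and 21.6% ± 5.17 in mono-IL10. Fewer T cells with a receptor in a cluster and less receptor RNA per cell cannot be told apart in shares over whole clusters. Macrophage markers were also present in all groups at 91.2 to 316 CPM, and their part in the result was not tested.

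Whether IL10/2-Trikine differed from PBS was also examined in smaller sets of cells. Without the Cycling_T cluster the Trav difference was -11.7 points (exact permutation test, adjusted p = 0.0159), and without its cells with more NK than CD3 UMIs it was -14.7 points (exact permutation test, adjusted p = 0.0238), with all 5 IL10/2-Trikine mice below PBS both times. Under other restrictions the differences were smaller or did not pass. Trac, the alpha constant gene, was seen in a mean of 70.7%, 73.9% and 43.5% of T cells per mouse in PBS, mono-IL10 and IL10/2-Trikine. Among T cells with a Trac UMI, a restriction chosen after the data had been seen, a Trbv UMI was found in 33.2% ± 11.1 of the cells of PBS mice, 56.3% ± 4.69 for mono-IL10 and 26.4% ± 20.2 for IL10/2-Trikine (n = 5 each). Between IL10/2-Trikine and PBS the Trbv difference was then -6.73 points (exact permutation test, adjusted p = 0.589). The Trav difference in these cells was -14.3 points (exact permutation test, adjusted p = 0.0476), from means of 9.30% in IL10/2-Trikine and 23.6% in PBS. Thinning lowered both means, to 5.59% and 13.2%, and the difference of -7.64 points did not pass (exact permutation test, adjusted p = 0.0595). Mono-IL10 stayed above PBS in Trbv among the Trac-positive cells (exact permutation test, adjusted p = 0.0238). In act_CD4T and Treg cells alone, also chosen after the data had been seen, that Trbv difference was 16.4 points (exact permutation test, adjusted p = 0.111). The Trav differences of IL10/2-Trikine in those clusters did not pass either, at -14.9 points to PBS and -24.3 points to mono-IL10 (exact permutation tests, adjusted p = 0.148 and 0.136). Its Trbv difference there passed against mono-IL10, at -35.2 points, but not against PBS, at -18.8 points (exact permutation tests, adjusted p = 0.0476 and 0.152). The unadjusted exact permutation p of that call was 0.0159. Its adjustment over 12 tests included the main Cycling_T and NK shares, which lie outside these clusters, and the call depends on them. IL10/2-Trikine mice 3 and 4 had only 3 and 4 cells in those clusters.

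V genes were also set against the constant genes of the same chains. For every 100 Trbc UMIs in T cells the PBS mice had 27.97 ± 17.0 Trbv UMIs, the mono-IL10 mice 42.1 ± 9.30 and the IL10/2-Trikine mice 8.87 ± 8.02 (SD, n = 5 each). The range in IL10/2-Trikine, 0 to 19.8, overlapped that of PBS, 11.0 to 56.6, but not that of mono-IL10, 33.5 to 57.8. For every 100 Trac UMIs there were 16.8 ± 3.47 Trav UMIs for PBS, 24.1 ± 12.7 for mono-IL10 and 4.69 ± 3.37 for IL10/2-Trikine, where the highest mouse (9.09) was below the lowest PBS mouse (13.5). These ratios are given as values with no test. NK cells also hold Trbc, and the Trbv ratio moved with the cells counted. Over whole libraries it was 27.4 in PBS and 9.35 in IL10/2-Trikine for all T clusters, but 30 and 21.3 for the CD4 clusters alone. The Trav ratio was 16.8 and 5.02 for all T clusters and 17.8 and 5.93 for the CD4 clusters, the last from 7 Trav UMIs.

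In Cycling_T, a cluster of dividing cells, the share with a V gene separated IL10/2-Trikine from both other groups. In the PBS mice 28.6, 33.3, 50, 27.3 and 60% of Cycling_T cells had a Trav or Trbv UMI (39.8% ± 14.5, SD, n = 5). In the mono-IL10 mice 77.1, 66.7, 50, 71.4 and 78.6% did (68.8% ± 11.5). In the IL10/2-Trikine mice 5.88, 20, 16.7, 0 and 25% did (13.5% ± 10.3). IL10/2-Trikine lay below every mouse of the other groups, with a difference of -26.3 points to PBS and of -55.3 points to mono-IL10 (exact permutation tests, adjusted p = 0.0136 for both). Mono-IL10 was 28.9 points above PBS (exact permutation test, adjusted p = 0.0357), a call that was lost when any 1 of 6 mice was left out. After thinning every cell to 1500 UMIs the means were 7.48% ± 5.20 for IL10/2-Trikine, 24.1% ± 9.76 for PBS and 38.8% ± 8.46 for mono-IL10. The differences of IL10/2-Trikine were then smaller, -16.6 points to PBS and -31.3 points to mono-IL10 (exact permutation tests, adjusted p = 0.0317 and 0.0190), and 4 of its 5 mice lay below every PBS mouse. Mono-IL10 was 14.7 points above PBS on these thinned counts (exact permutation test, adjusted p = 0.0476).

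Within Cycling_T of IL10/2-Trikine, V UMIs were found where other receptor transcripts were. Of the 174 IL10/2-Trikine cells in this cluster, 124 had no Trac UMI, and 0 of these 124 had a V UMI, a count of 0 that allows up to 2.42%. Of the 109 cells with no CD3 UMI 0 had a V UMI (up to 2.75%). The other groups had few such cells but did not all lack V UMIs. Without a Trac UMI, 2 of 17 Cycling_T cells from PBS (11.8%) and 6 of 18 from mono-IL10 (33.3%) had one, and without a CD3 UMI 0 of 12 (up to 25%) and 1 of 11 did, at median depths of 6543 to 7954 UMIs against 3411.5 and 3415 for IL10/2-Trikine. Of the 50 IL10/2-Trikine cells with a Trac UMI 18 had one (36.0%, exact 95% interval 22.9 to 50.8). More NK marker than CD3 UMIs were found in 138 of the 174 cells, and 6 of those 138 (4.35%) held a V UMI. Per mouse such cells made up 68.6 to 76.5% of Cycling_T in IL10/2-Trikine, 18.2 to 40% in PBS and 11.1 to 25% in mono-IL10.

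Without the cells that had more NK than CD3 UMIs, a V UMI was found in 35.6% ± 25.3 of Cycling_T cells per IL10/2-Trikine mouse, 55.5% ± 28.1 for PBS and 79.3% ± 10.9 for mono-IL10 (n = 5 each). These shares rest on 3 to 11 cells per IL10/2-Trikine mouse, 3 to 9 per PBS mouse and 3 to 31 per mono-IL10 mouse. The difference from PBS was then -19.9 points (exact permutation test, adjusted p = 0.329) and that from mono-IL10 was -43.7 points (exact permutation test, adjusted p = 0.0317). Among Cycling_T cells with a Trac UMI, counted in 4 IL10/2-Trikine mice, the difference from PBS was -9.84 points (exact permutation test, adjusted p = 0.611). That difference rests on 3 to 17 cells per IL10/2-Trikine mouse and 3 to 8 per PBS mouse. With so few cells, a missing call does not show that the groups were alike.

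NK cells gave the background, and in the beta chain they held the constant genes with few variable ones. Trbc1 or Trbc2 was seen in 70.8% of NK cells against 77.6% of T cells, with a range over the 15 mice of 44.4 to 90.4%. Trbc1 alone was seen in 60.7% of NK cells. Yet NK cells had 6 Trbv UMIs in all, or 0.448 for every 100 Trbc UMIs, against 32.9 in T cells. Of the cells with a Trbc UMI, 0.818% of NK cells and 37.7% of T cells also had a Trbv UMI. In the alpha chain NK cells had 17.9 Trav UMIs for every 100 Trac UMIs, from 12 and 67 UMIs, and T cells 18.8. All but 1 of those 12 UMIs came from a gene not read in these T cells, Trav13-5, without which the NK value was 1.49 (exact Poisson interval of the Trav count 0.0378 to 8.32, counting error only), an alternative added after the data had been seen. Over all macrophage barcodes, another population that should lack these genes, a V UMI was found in 7.68% (PBS), 9.21% (mono-IL10) and 6.35% (IL10/2-Trikine). Thinned to 1500 UMIs, which left out 8 shallower IL10/2-Trikine barcodes, these shares were 1.41%, 1.56% and 1.76%, with IL10/2-Trikine no longer lowest. Those that also held a CD3 UMI had one in 29.8%, 31.0% and 19.0% of cases, at median depths of 11058.5, 12534 and 5792 UMIs, and in 5.43%, 5.24% and 5.19% after thinning. Macrophage barcodes with no CD3 UMI had a V UMI in 0.809% (PBS), 0.514% (mono-IL10) and 1.32% (IL10/2-Trikine) of cases, at median depths of 6615, 7319 and 4018 UMIs.

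Of the 12 Trav UMIs in NK cells, 11 belonged to a single gene, Trav13-5 (ENSMUSG00000087666), in 10 cells. This gene was chosen for description after its values had been seen. Trav13-5 had 0 UMIs in the 1221 T cells, a count of 0 that allows up to 0.246%, so that the V gene read most often in NK cells was read in no annotated T cell. Among barcodes without an annotation it was found in 8, 13 and 26 (PBS, mono-IL10, IL10/2-Trikine), and 2, 8 and 1 of these held 2 or more CD3 UMIs. An NK marker UMI was held by 8, 13 and 25 of them, and by 73.9%, 70.9% and 56.2% of all barcodes without an annotation. Its 10 NK cells came from all 3 libraries, 2 from PBS, 6 from mono-IL10 and 2 from IL10/2-Trikine, and those with a hashtag lay in 5 mice, 1 of PBS and 4 of mono-IL10. Of these 10 cells 3 had a Trac UMI and 2 a CD3 UMI. In RefSeq order (GRCm38.p6) the gene lies between Trav12-4 and Trav17, and no coding sequence for it was found among the transcripts used here, so that its uniqueness was not assessed.

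Per mouse, V UMIs were found in 0, 8.33, 0, 3.23 and 0% of NK cells in PBS, in 3.85, 5.26, 11.1, 3.64 and 5.71% in mono-IL10 and in 0, 0, 0, 0 and 1.54% in IL10/2-Trikine. IL10/2-Trikine lay below mono-IL10 (difference -5.61 points, exact permutation test, adjusted p = 0.0136), with all mice apart. NK cells were also read most deeply in mono-IL10, at a median of 4965 UMIs against 3105.5 for PBS and 2603.5 for IL10/2-Trikine. Thinned to 1500 UMIs, the means were 0.146% for IL10/2-Trikine and 1.58% for mono-IL10, and the difference was -1.44 points (exact permutation test, adjusted p = 0.0190). Without Trav13-5, an alternative added after the data had been seen, the means were 0.645% for PBS, 1.34% for mono-IL10 and 0.308% for IL10/2-Trikine, and this difference was -1.03 points (exact permutation test, adjusted p = 0.533). The NK comparison therefore rested on that gene and on single UMIs.

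Among the delta variable genes, Trdv2-2 and Trdv4 had the most UMIs, and they were picked for this after their values had been seen. At least 1 of them was seen in 14.0% of NK cells against 2.95% of T cells. Trdv1 and Trdv5 went the other way, with a UMI in 7 and 4 T cells and in 0 NK cells, while Trdv2-1 and Trdv3 had 0 UMIs in both. Per mouse the NK share was 5.00 to 10.0% in PBS, 21.1 to 44.4% in mono-IL10 and 0 to 18.5% in IL10/2-Trikine, so that the mono-IL10 mice lay above all others. NK cells of mono-IL10 were also the deepest, at a median of 4965 UMIs against 3105.5 and 2603.5, and the difference was not tested.

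Which V genes were used was read from the leading gene of each cell, the one with most UMIs, with ties left out. Trbv19 (ENSMUSG00000076475) led 65 T cells, 16.3% of those assigned, and Trbv29 (ENSMUSG00000076480) led 50 (12.5%). Trbv13-1 and Trbv13-2 led 35 each (8.77%). Trbv20 followed with 29, Trbv1 with 26, Trbv12-2 with 22, Trbv26 with 18 and Trbv17 with 17, and Trbv15, Trbv16 and Trbv3 with 16 each. The remaining genes led 14 cells or fewer. Usage was thus uneven but spread, and no gene led as many as 1 in 5 cells. This order is mostly that of mono-IL10, which gave 49 of the 65 cells led by Trbv19. In PBS alone Trbv20 led 18 cells, Trbv29 12, Trbv13-2 10 and Trbv19 9.

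The leading gene changed from mouse to mouse. In PBS it was Trbv29 in mouse 1 (5 of 11 assigned cells) and mouse 3 (3 of 22), Trbv12-2 and Trbv19 together in mouse 2 (3 of 13 each) and Trbv20 in mouse 4 (5 of 22), while the 6 assigned cells of mouse 5 had 6 different genes. In mono-IL10 it was Trbv19 in mouse 1 (15 of 59) and mouse 2 (6 of 34), Trbv13-2 in mouse 3 (3 of 13), Trbv13-1 in mouse 4 (12 of 69), and Trbv13-1 and Trbv29 in mouse 5 (6 of 27 each). In IL10/2-Trikine only mouse 2, led by Trbv19 (4 of 14), and mouse 5, led by Trbv1 (3 of 13), had more than 2 assigned cells. No gene was the leading one in all mice of a group.

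**Figure D4:**
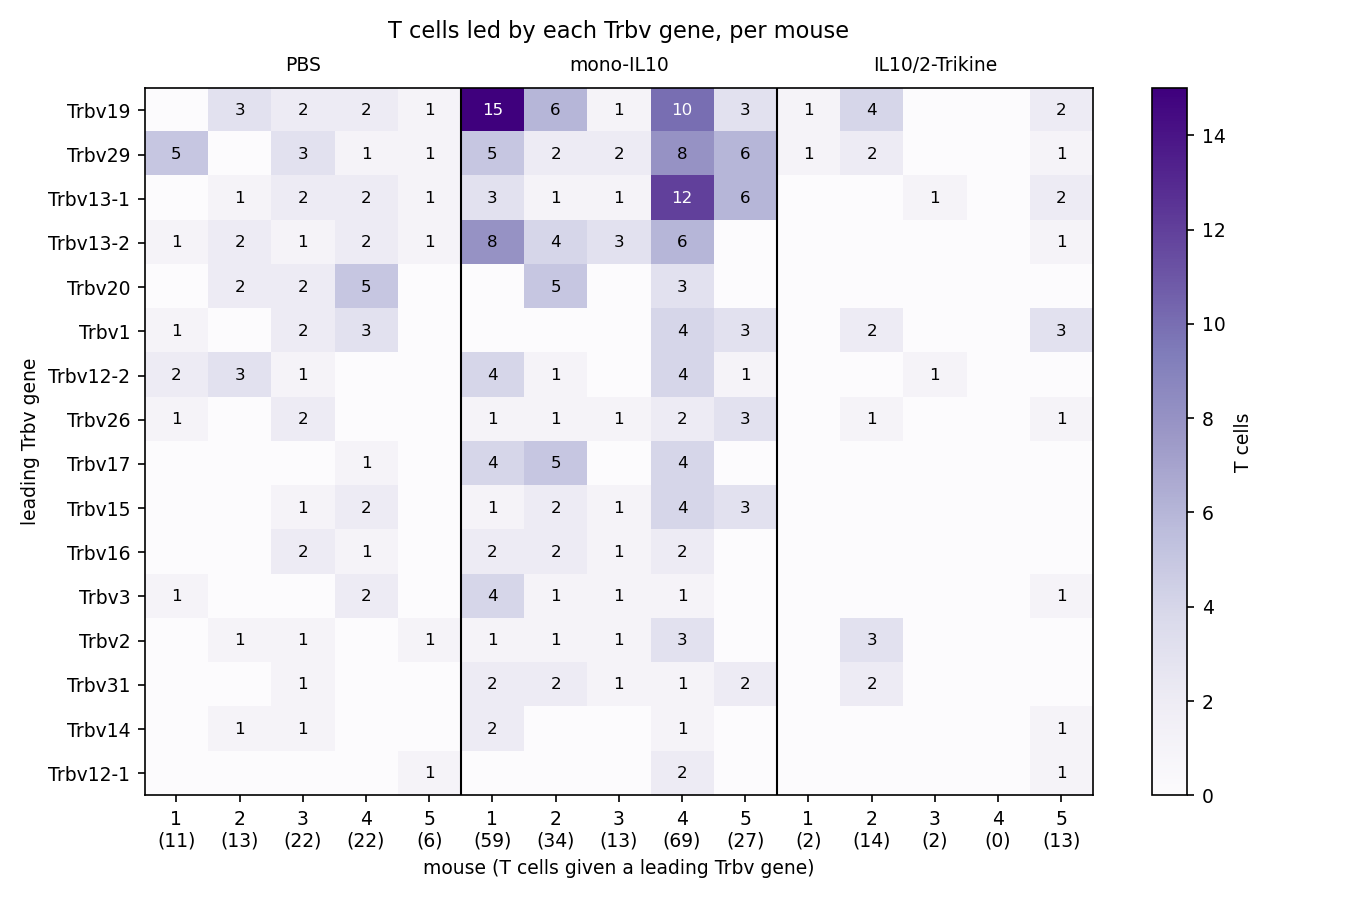
Each cell of the grid gives the number of T cells led by a Trbv gene (rows, the 16 genes that led most cells) in a mouse (columns, with the number of assigned T cells in parentheses). Trbv19 and Trbv29 are spread over 12 mice each, whereas Trbv17 was found in 4 mice, 3 of them mono-IL10 mice with 4 or 5 cells.

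The shares of the most used genes did not separate the groups. Trbv19 led 0, 23.1, 9.09, 9.09 and 16.7% of assigned cells in the PBS mice and 25.4, 17.6, 7.69, 14.5 and 11.1% in the mono-IL10 mice, which overlap. In the 4 IL10/2-Trikine mice with an assigned cell it led 50, 28.6, 0 and 15.4%, of 2, 14, 2 and 13 cells. Trbv29 led 45.5, 0, 13.6, 4.55 and 16.7% in PBS and 8.47, 5.88, 15.4, 11.6 and 22.2% in mono-IL10, so that a single PBS mouse, with 5 of 11 cells, set the top of the range.

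Trbv13-2, the gene with the lowest p, led 11.0% ± 5.01 in PBS (n = 5), 11.4% ± 8.34 in mono-IL10 (n = 5) and 1.92% ± 3.85 in IL10/2-Trikine (n = 4), a difference of -9.03 points from PBS (exact permutation p = 0.0397, adjusted p = 0.429). Of the 12 tests over Trbv19, Trbv29, Trbv13-1 and Trbv13-2, the genes that led at least 20 cells with a mouse, 0 passed after adjustment and 1 had an unadjusted p under 0.05. The smallest p of this exact test with 5 mice against 5, 0.00794, does not pass after adjustment over 12 tests when only 1 test reaches it. A gene that set groups apart in a single comparison could therefore not be called. The IL10/2-Trikine shares rest on 2 to 14 assigned cells per mouse.

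The pooled proportions of several Trbv genes differed between CD8 and CD4 cells, but there were too few mice for a test to call a single gene. Pooled over libraries, Trbv19 led 26.97% of the 89 assigned cells in the CD8 clusters (naive_CD8T and ISG+CD8T) and 8.92% of the 157 in the CD4 clusters (naive_CD4T, act_CD4T, Treg and Cycling_Treg). Trbv29 led 19.1% and 5.73%. Trbv20 went the other way, 3.37% in CD8 and 14.6% in CD4, as did Trbv1, with 0 CD8 cells, which allows up to 3.37%, against 11.5% of CD4 cells. The classes drew on the libraries unequally, with 10, 77 and 2 assigned CD8 cells and 52, 89 and 16 assigned CD4 cells from PBS, mono-IL10 and IL10/2-Trikine. Within mono-IL10 Trbv20 led 3.90% of CD8 and 6.74% of CD4 cells, and 17 of the 23 CD4 cells it led came from PBS, where 52 CD4 cells were assigned. Trbv1 kept its direction within mono-IL10, with 0 of 77 CD8 cells and 11.2% of CD4 cells, and so did Trbv19 (27.3% and 8.99%) and Trbv29 (18.2% and 4.49%). Cycling_T, with 97 assigned cells, stood near the CD8 clusters for Trbv19 (23.7%) and Trbv29 (18.6%) and lower than the CD4 clusters for Trbv20 (2.06%) and Trbv1 (3.09%).

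Cells of a mouse are not independent, so the comparison was repeated by mouse where both classes had at least 5 assigned cells, which held in the 5 mono-IL10 mice only. Trbv29 led 30.8, 10.0, 20, 6.90 and 60% of their CD8 cells and 0, 0, 0, 10.5 and 0% of their CD4 cells, higher in CD8 in 4 of 5 mice. Trbv19 led 38.5, 30.0, 20, 20.7 and 0% of CD8 cells and 20, 8.33, 0, 0 and 15.4% of CD4 cells, also higher in 4 of 5. With 5 pairs no test was made. In the 7 mice with at least 3 assigned cells in both, the Trbv29 difference was 21.5 points (exact sign-flip permutation test, p = 0.0625, adjusted p = 0.25 over 4 genes), higher in CD8 in 5 of 7. With 7 mice and adjustment over 4 genes, a single gene could not pass even if all 7 mice went the same way.

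**Figure D5:**
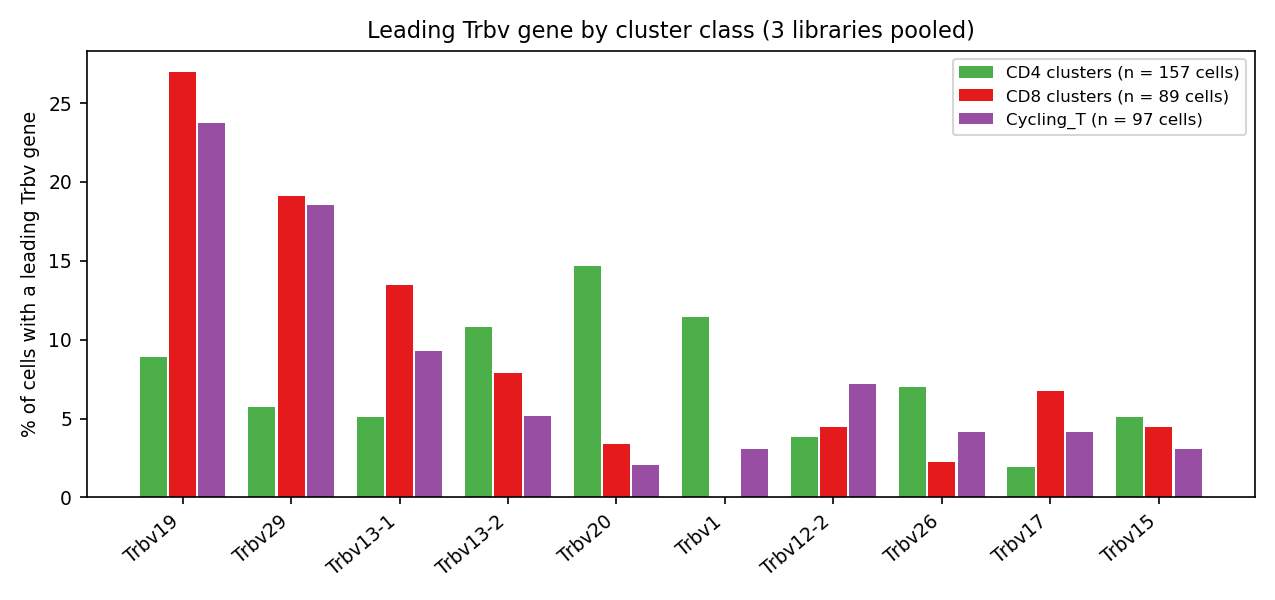
Bars give the percent of cells led by each of the 10 most used Trbv genes in the CD4 clusters (157 cells), the CD8 clusters (89 cells) and Cycling_T (97 cells), with the libraries pooled and no error bars. Trbv19 and Trbv29 stand higher in CD8 and Cycling_T than in CD4, and Trbv20 and Trbv1 higher in CD4.

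Among Trav subgroups Trav9 led 48 T cells (21.7%), Trav12 28, Trav6 26, Trav3 23 and Trav14 21. Trav13 led 17 cells, Trav7 14, Trav16 12, Trav8 10 and Trav21 6. Within these, Trav3-3 led 23 cells, Trav9-2 19 and Trav9-4 16. Trav9 led 16.7, 42.9, 7.14, 25 and 0% of assigned cells in the PBS mice and 21.1, 18.8, 30.8, 21.4 and 31.6% in the mono-IL10 mice, which overlap. Trav12 led 16.2% ± 10.3 in PBS and 15.9% ± 8.48 in mono-IL10 (n = 5 each) and 0 of the 1 to 5 cells assigned in each of 4 IL10/2-Trikine mice, where the lowest exact permutation p was 0.0159 (adjusted p = 0.0952, against mono-IL10). Over Trav9 and Trav12, 0 of 6 tests passed after adjustment and 2 had an unadjusted p under 0.05.

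Cells in which both chains were assigned numbered 27 among PBS cells, 77 for mono-IL10 and 3 for IL10/2-Trikine. The most frequent pair was Trav14 with Trbv1 in mono-IL10 (5 cells). In PBS, Trav14 with Trbv29 and Trav7 with Trbv13-2 had 2 cells each, and the 3 IL10/2-Trikine cells had 3 different pairs. Within a single mouse the largest count was 3 cells, for Trav9 with Trbv13-2 in mono-IL10 mouse 1. Pairs repeated within a mouse were found 8 times in mono-IL10, for 6 different pairs, and in no mouse of the other groups, which had far fewer cells with both chains. A shared pair of V genes is not a shared clone, since the joined loop is not read in these files.

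V genes of invariant T cells gave little signal. Trav11, Trav11d and Trav11n, which pair with Trbv13-2, Trbv29 or Trbv1 in NKT cells, had 0 UMIs in every annotated T and NK cell, including the 206 gdT/NKT cells, where a count of 0 allows up to 1.46% of cells. Given that Trav11 and Trav11d share their sequence, this 0 cannot be read as absence of NKT cells. Trav1, used by MAIT cells together with Trbv19 or the Trbv13 genes, was seen in 2 T cells. In gdT/NKT the leading Trbv gene was Trbv16, with 7 of the 49 assigned cells (14.3%), ahead of Trbv29 with 6.

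Diversity was high in all groups. The chance that a pair of assigned T cells of a mouse had different Trbv genes was 0.916 ± 0.0757 in PBS (SD, n = 5), 0.913 ± 0.0267 in mono-IL10 (n = 5) and 0.902 ± 0.0479 in the 2 IL10/2-Trikine mice with at least 5 assigned cells. The lowest mouse, PBS mouse 1 at 0.800, was the one in which Trbv29 led 5 of 11 cells. For Trav subgroups the values were 0.919 ± 0.0430 in PBS and 0.873 ± 0.0363 in mono-IL10 (n = 5 each) and 0.900 in the single IL10/2-Trikine mouse that could be used. None of the comparisons that could be tested passed (exact permutation tests, lowest adjusted p = 0.444 for Trav in mono-IL10 against PBS). With 1 mouse the Trav comparisons of IL10/2-Trikine had no test, and with 2 mice its Trbv comparisons could not pass on their own after adjustment.

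Single V genes were too sparse for the test across all genes. In edgeR's quasi-likelihood test on counts summed per mouse, 3189 genes passed the filter on low counts, and 0 of the 165 V genes did. Trbv29, the most abundant in mice, had 141 UMIs over 12 mice, and Trbv19 had 112. Of all tested genes 8.97% were called between IL10/2-Trikine and PBS, 12.3% between IL10/2-Trikine and mono-IL10 and 1.72% between mono-IL10 and PBS, none of them a V gene.

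When the filter on low counts was dropped, 73 V genes could be fitted among 15878 genes, where 1.86%, 3.1% and 0.85% of all genes were called in these comparisons. DESeq2 called 8.29%, 6.06% and 8.21% of the genes it gave an adjusted p. Only 0, 1 and 0 V genes were given one, so it could call no others. Between IL10/2-Trikine and PBS 0 V genes were called and 7 had an unadjusted p under 0.05, against 2 with DESeq2. Between IL10/2-Trikine and mono-IL10 edgeR called 7 V genes, all lower in IL10/2-Trikine. DESeq2 called Trbv29, the only V gene it gave an adjusted p. Trbv29 fell by 3.02 on the log2 scale (SE 0.55, edgeR adjusted p = 8.6e-06), and Trbv17, Trbv15, Trav9-2, Trbv3, Trbv16 and Trbv13-2 were the others. Between mono-IL10 and PBS edgeR called 3, all higher in mono-IL10, which were Trbv17 (log2 difference 3.30), Trbv15 (2.78) and Trbv13-1 (2.08). DESeq2 gave no V gene an adjusted p here and 5 an unadjusted p under 0.05. Fitted values for genes at 0 in most mice depend on the prior count and are no measure of fold.

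The rest of the receptor was read from the same fit, as a list of 29 genes of which 7 passed the filter. Between IL10/2-Trikine and PBS 3 of the 7 were lower, where 3.83% of all tested genes were, and 0 higher (5.14% of all genes). These were the CD3 chains Cd3d (log2 difference -0.84, SE 0.13, edgeR adjusted p = 0.00024), Cd3g (-0.80) and Cd3e (-0.58). Against mono-IL10 4 of the 7 were lower and 0 higher, where 6.21% and 6.05% of all genes were. The log2 differences were -1.57 for Cd3g, -1.31 for Cd3d, -1.02 for Cd3e and -0.66 for Trac (SE 0.19, edgeR adjusted p = 0.020). Trbc1, which NK cells also express, gave a log2 difference of 0.80 from PBS that did not pass (edgeR adjusted p = 0.057).

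Between mono-IL10 and PBS 3 of the 7 were higher, where 1.19% of all genes were, Trbc1 by 0.95, Cd3g by 0.77 and Cd3d by 0.47 (edgeR adjusted p = 0.029, 0.00084 and 0.036). In the same T clusters 4 of the 5 NK markers were higher in IL10/2-Trikine than in PBS, where 5.14% of all tested genes were. Among them were Ncr1 by 2.30 and Klrb1c by 1.59. All 5 were higher than in mono-IL10, where 6.05% of all tested genes were (edgeR adjusted p from 8.7e-07 to 0.0031). This list was chosen with earlier results of these data known.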

How the data were processed

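Cells of the 3 libraries were read with a 5′ droplet assay, and the authors aligned and counted them with Cell Ranger 9.0.1 against GRCm39, which gave the deposited UMI counts per gene and barcode. The authors kept cells with at least 1000 genes and at most 10% mitochondrial counts, and clustered and named them with Seurat 5.1.0. Their cluster and hashtag table was used as deposited, and it holds only cells classed as hashtag singlets or negatives, so no further doublet step was run. A further 7858 cells of that table belong to no sample used here.

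A cell was counted as having a chain with at least 1 UMI of a Trav or Trbv gene. Its leading gene was the one with most UMIs, and ties were left out. Shares were computed per mouse from cells with a single hashtag (at least 3 cells for Cycling_T and NK). Mice were the units of the exact permutation tests, which were two-sided. Benjamini-Hochberg adjustment was made over 12 tests for the shares, 12 for Trbv usage and 6 for Trav usage. It was made over 4 genes for CD8 against CD4, and over the comparisons that had a p for diversity. Under other settings, shares that a setting did not cover kept their main p in the adjustment. Hashtagged mice are separate animals, but each treatment is 1 library of 1 experiment. Counts summed per mouse over T clusters were tested with edgeR 4.0.16 (quasi-likelihood, TMM, filterByExpr), with DESeq2 1.42.0 as an alternative, in R 4.3.3. The edgeR step was tested on simulated data. Python 3.11.15, pandas 2.3.3 and scipy 1.17.1 did the rest.

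Thinning drew 1500 UMIs per cell. Unique sequence was counted in windows of 50 bases over GENCODE M21 coding sequences. Intervals are exact Clopper-Pearson at 95%, limits for a count of 0 use 3 counts, and both cover counting error only.

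The genes named are the 10 Trbv genes and 10 Trav subgroups that led most T cells, the leading Trbv gene of each mouse and the most frequent pair per group, V genes of invariant T cells, and V genes or other receptor genes past the edgeR threshold of 0.05. The members follow from the gene symbols alone, with no measured value used. That rule and the lists were chosen with earlier results of these data known.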

Additional observations from a re-analysis of the deposited data

Results flagged for a closer look

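In 34 groups of mice examined for a value far from the rest, 3 were found, at a nominal rate of about 1 in 20. That rate does not hold where all mice but 1 are at 0, as in both IL10/2-Trikine cases below, which rest on 1 cell each. The number found is therefore no measure of signal. The share of NK cells with a V UMI was 11.1% in mono-IL10 mouse 3, far above the other mice of its group, in 9 NK cells. The same share was 1.54% in IL10/2-Trikine mouse 5 and 0 in the other 4 mice. Trbv13-2 led 7.69% of assigned T cells in IL10/2-Trikine mouse 5 and 0 in the other 3 mice with assigned cells.

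A signal was also present in barcodes that carry no T or NK annotation. At least 2 Trbv UMIs were found in 467 of 23217 such barcodes in mono-IL10 (2.01%), above the 427 of 34002 in PBS (1.26%), and in 180 of 45379 in IL10/2-Trikine (0.397%). Of these barcodes 99.4%, 98.1% and 89.4% also had a CD3 UMI, and 59.3%, 75.2% and 73.9% met the macrophage marker threshold of 10 UMIs. The annotated T cells with at least 2 Trbv UMIs numbered 163, 42 and 11, fewer than the unannotated barcodes in each library.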

How the results depend on the processing

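For results that had passed a test, 115 of 132 values recomputed under other settings were counted as kept. For tested settings this means the same direction and call. Values over whole libraries had no test and were counted as kept when within the pooled SD of the main difference. The other recomputed values belong to results without a call, many of them untested or at 0. With at least 2 UMIs required, the NK differences became 0.308 (IL10/2-Trikine minus mono-IL10) and -0.833 (mono-IL10 minus PBS) percentage points, and the first was -2.72 over whole libraries and -1.03 without Trav13-5. Without cells with more NK than CD3 UMIs the Cycling_T differences of IL10/2-Trikine and of mono-IL10 from PBS were -19.9 and 23.8, and among cells with a Trac UMI -9.84 and 25.6, none past the threshold. Neither were Trav against PBS in thinned Trac-positive T cells (-7.64, from means of 5.59% and 13.2%, against 9.30% and 23.6% unthinned), nor, in act_CD4T and Treg alone, Trbv in mono-IL10 against PBS (16.4) and Trav in IL10/2-Trikine against PBS (-14.9) and mono-IL10 (-24.3). The settings with Trac, act_CD4T and Treg, or Trav13-5 were chosen after seeing the data. The Trbv diversity difference between mono-IL10 and PBS was 0.0574 as a probability with at least 2 UMIs, and 0.221 as a number of genes seen in 10 cells (7.07 against 6.85 genes). For single V genes edgeR without a filter on low counts called 7 (IL10/2-Trikine against mono-IL10) and 3 (mono-IL10 against PBS). DESeq2 called 1 in the first comparison, the only V gene it gave an adjusted p. Apart from the fewer cells or genes counted, the cause was not tested.

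With 1 mouse left out, the Cycling_T difference between mono-IL10 and PBS ranged from 25.8 to 34.0 and lost its call without PBS mouse 1 or 4 or mono-IL10 mouse 1, 2, 4 or 5 (exact permutation tests, adjusted p up to 0.0595). The NK difference between them ranged from 2.30 to 5.11 and passed without PBS mouse 2. Trbv in IL10/2-Trikine against PBS ranged from -20.5 to -12.1. Trbv diversity differences ranged from -0.0480 to 0.0198 and -0.0448 to 0.0230 for IL10/2-Trikine against PBS and mono-IL10, and from -0.0322 to 0.0178 between the latter. No paired analysis was possible because each treatment is 1 library, and equal hashtag numbers in different groups are different mice. Usage rests on the fewest cells in IL10/2-Trikine, where 37 of 299 T cells had a Trbv UMI at a median of 2772 UMIs per T cell, against 102 of 342 at 2658 UMIs in PBS.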
